A study of Mus musculus with 15 samples.

Results

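The 40 genes described here encode proteins of DNA replication and cell division, and they were found by symbol in a table of 55486 genes. All 40 were present and all 40 passed the filter on low counts, as 14843 of the 55486 genes did. By textbook role, 16 belong to the G1/S transition and S phase and 24 to G2 and mitosis. The table held read counts from 15 bulk RNA-seq libraries of macrophages purified from primary mouse brain tumours with a cell sorter. All 4 groups carried the same genotype, given in the labels as Ink4a/ArfKO, PDGFB: the tumour model combines expression of the growth factor PDGFB with loss of the Ink4a/Arf locus, and the series' design text places PDGFB in Nestin-positive progenitor cells. The groups were lipid-laden monocyte-derived macrophages (MDM; 3 libraries), non-lipid-laden MDM (4 libraries), lipid-laden microglia (4 libraries) and non-lipid-laden microglia (4 libraries). MDM descend from blood monocytes, whereas microglia settle in the brain during development. The sources used here do not give the gate that defined lipid load, the age of the mice, whether animals were pooled or whether a shared library number means a shared animal, so p-values measure the spread between these libraries.

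Cells that divide copy their DNA in S phase and separate it in mitosis, and each step has its own set of genes that are transcribed just before use. E2F transcription factors drive the G1/S set, which includes cyclin E, the MCM helicase and the enzymes that make deoxynucleotides. The mitotic set, which includes the B cyclins, CDK1 and the kinesins, is held down in resting cells by the DREAM complex and switched on in G2 by B-MYB and FOXM1, through a promoter element called the cell cycle genes homology region (CHR) and through CCAAT boxes bound by NF-Y. Microglia renew themselves by local division, whereas monocytes mostly stop dividing before they enter tissue. A bulk library averages dividing and resting cells, so fewer dividing cells and less of a transcript per dividing cell cannot be told apart.

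Promoter windows from RefSeq (GRCm38.p6; 250 bases before to 50 bases after an annotated start) were found for 14 of the 16 S-phase genes and 20 of the 24 mitotic genes. They were searched on both strands for TTTGAA (the only form of the CHR counted), for CCAAT, and for the E2F core. The last was counted where TTGGCGC or its relatives TTCCCGC and also TTGCCGC and finally TTCGCGC were found. Matches of different motifs may overlap. TTTGAA was present for 15 of 20 mitotic genes (75.0%), 2 of 14 S-phase genes (14.3%) and 20.2% of the 27025 genes with a window. The E2F core was present for 3 of 20 mitotic genes (15.0%), 8 of 14 S-phase genes (57.1%) and 10.9% of all genes with a window, and CCAAT was present for 90.0% of the mitotic genes, 71.4% of the S-phase genes and 41.1% of all genes with a window. Among the genes tested here that have a window, 10901 in number, TTTGAA was found for 14.9%, the E2F core for 18.9% and CCAAT for 42.7%. TTTGAA lay closest to the start at positions from -98 to 41 in the 15 mitotic genes, and in 14 of them at -30 or beyond in the direction of transcription. A match is a description of these letters in this window, not evidence that a factor binds there.

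**Figure D1:**
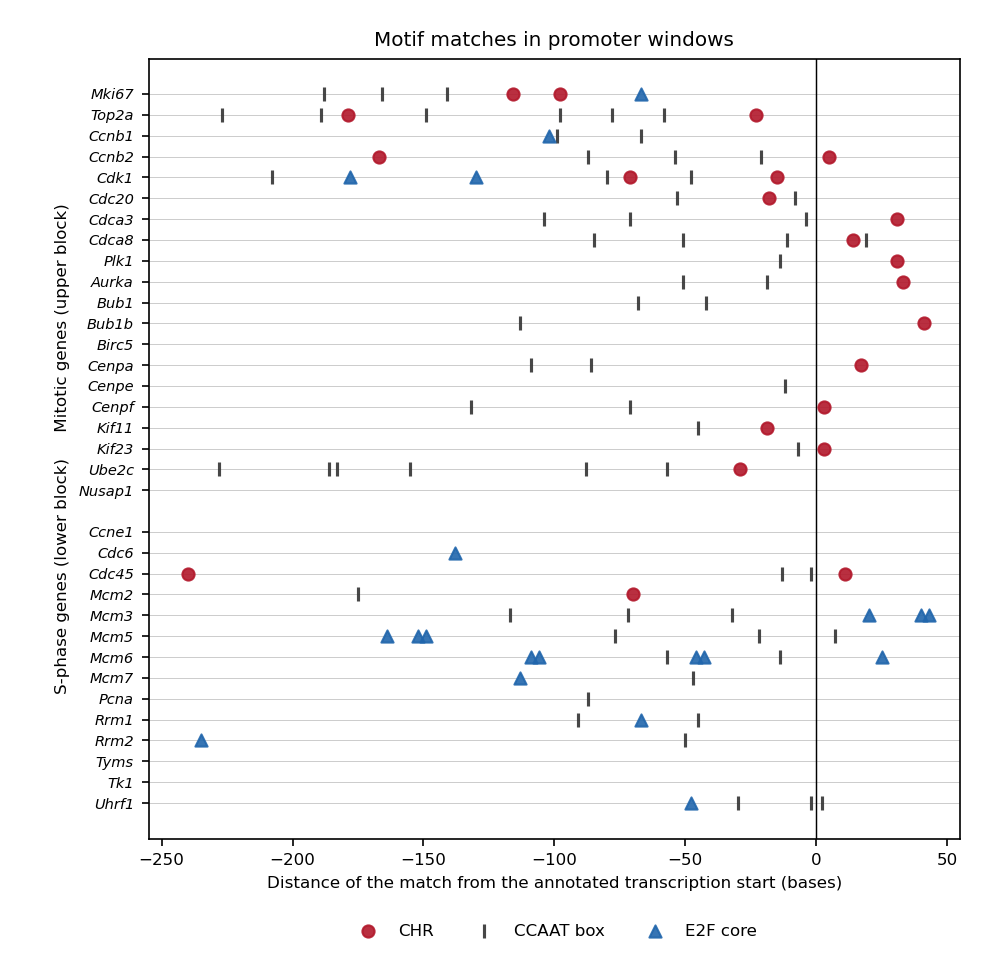
Distance in bases from the annotated start (x axis) of every match to TTTGAA (CHR, circles), CCAAT (bars) and the E2F core (triangles) in the promoter windows of 34 cell cycle genes (rows), mitotic genes above and S-phase genes below; for Mcm7 and Uhrf1, which have 2 windows, 1 is drawn. TTTGAA matches near the start are present for most mitotic genes, and E2F core matches for 8 S-phase genes.

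The windows of 6 genes are printed to show both kinds of promoter in members called between lipid-laden and non-lipid-laden MDM: the mitotic genes Ccnb1 (cyclin B1; chr13:100786437-100786736, minus strand), Cdc20 (the activator of the anaphase-promoting complex; chr4:118437294-118437593, minus strand) and Cdk1 (the mitotic kinase; chr10:69352863-69353162, minus strand), and the S-phase genes Mcm3 (helicase subunit; chr1:20820263-20820562, minus strand), Mcm6 (helicase subunit; chr1:128359656-128359955, minus strand) and Rrm2 (ribonucleotide reductase subunit; chr12:24708004-24708303, plus strand). Each runs 5′ to 3′ along its gene, and capitals mark every match to the letters searched, adjoining matches running together.
Ccnb1: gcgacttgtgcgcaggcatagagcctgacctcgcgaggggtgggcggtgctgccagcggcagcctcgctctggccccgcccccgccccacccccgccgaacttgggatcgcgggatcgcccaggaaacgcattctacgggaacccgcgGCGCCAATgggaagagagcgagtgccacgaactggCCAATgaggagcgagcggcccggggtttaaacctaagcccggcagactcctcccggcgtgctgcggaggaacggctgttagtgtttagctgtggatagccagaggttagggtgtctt
Cdc20: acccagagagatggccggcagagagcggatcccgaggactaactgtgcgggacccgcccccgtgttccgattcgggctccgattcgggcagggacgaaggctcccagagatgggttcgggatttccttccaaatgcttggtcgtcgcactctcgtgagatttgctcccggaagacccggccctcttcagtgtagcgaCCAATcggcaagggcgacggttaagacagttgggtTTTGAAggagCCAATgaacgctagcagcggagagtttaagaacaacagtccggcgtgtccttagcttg
Cdk1: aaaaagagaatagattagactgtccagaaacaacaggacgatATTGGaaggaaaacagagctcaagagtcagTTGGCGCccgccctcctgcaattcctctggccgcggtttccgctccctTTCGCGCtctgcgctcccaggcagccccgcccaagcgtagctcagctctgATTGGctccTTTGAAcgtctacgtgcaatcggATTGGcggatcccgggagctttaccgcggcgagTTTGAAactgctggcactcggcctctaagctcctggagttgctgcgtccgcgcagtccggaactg
Mcm3: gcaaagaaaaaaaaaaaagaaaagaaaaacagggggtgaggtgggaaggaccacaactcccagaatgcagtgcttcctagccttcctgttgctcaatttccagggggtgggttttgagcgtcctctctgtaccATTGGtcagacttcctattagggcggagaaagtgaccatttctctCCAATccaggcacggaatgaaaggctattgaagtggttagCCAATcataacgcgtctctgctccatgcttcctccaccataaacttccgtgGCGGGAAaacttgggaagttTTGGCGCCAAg
Mcm6: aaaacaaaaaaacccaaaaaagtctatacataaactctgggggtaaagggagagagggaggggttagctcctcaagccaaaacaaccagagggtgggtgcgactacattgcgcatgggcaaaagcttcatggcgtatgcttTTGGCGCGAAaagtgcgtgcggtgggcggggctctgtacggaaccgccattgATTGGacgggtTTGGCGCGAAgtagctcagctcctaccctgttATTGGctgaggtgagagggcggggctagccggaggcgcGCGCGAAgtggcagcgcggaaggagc
Rrm2: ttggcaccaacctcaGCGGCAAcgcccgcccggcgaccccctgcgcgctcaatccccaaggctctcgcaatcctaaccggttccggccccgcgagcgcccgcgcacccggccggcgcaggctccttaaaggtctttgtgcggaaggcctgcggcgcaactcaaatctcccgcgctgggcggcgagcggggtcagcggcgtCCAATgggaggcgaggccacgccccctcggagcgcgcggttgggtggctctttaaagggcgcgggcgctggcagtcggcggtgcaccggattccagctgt
Cdc20 and Cdk1 hold TTTGAA close to the start, 1 and 2 copies, while Ccnb1 holds no TTTGAA in this window, 2 CCAAT matches and 1 E2F core. Mcm3, Mcm6 and Rrm2 hold 3, 5 and 1 E2F core matches and no TTTGAA.

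Total counts per library ranged from 7798952 to 11419338. The macrophage genes searched as a check (Csf1r, Cd68, Aif1, Itgam and Fcgr1) were present in all 4 groups, and the sorted origins carried their own markers. The summed level of 6 MDM markers (Ccr2, Itga4, Plac8, Ly6c2, Tgfbi and Ahnak) was 1014 to 1327 CPM in lipid-laden MDM, 2631 to 3257 CPM in non-lipid-laden MDM, 159 to 333 CPM in lipid-laden microglia and 148 to 252 CPM in non-lipid-laden microglia. CPM are counts scaled to a common library size with TMM factors, and they allow a gene to be compared between libraries but not with another gene of different length. Lipid-laden MDM also carried 6 microglial markers (P2ry12, Tmem119, Sall1, Cx3cr1, Gpr34 and Siglech) at 2653 to 3918 CPM, against 949 to 1529.7 CPM in non-lipid-laden MDM. Cdkn2a, the gene of the Ink4a/Arf locus, had at most 1.73 CPM in any library. It did not pass the filter, so the main edgeR fit did not test it. DESeq2, run without that filter, called it lower in non-lipid-laden MDM than in non-lipid-laden microglia. As every group carries the knockout and counts were this low, no comparison is drawn from it.

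The lowest mean of the 4 groups was that of non-lipid-laden MDM for all 24 mitotic genes and for 14 of the 16 S-phase genes. Lipid-laden microglia had the highest mean for 23 mitotic genes, and non-lipid-laden microglia for Ccnb2 alone. Among the S-phase genes, lipid-laden and non-lipid-laden microglia each had the highest mean for 7, non-lipid-laden MDM for Mcm4 and lipid-laden MDM for Mcm6. The summed level of the 24 mitotic genes was 1935, 1099 and 1602 CPM in the lipid-laden MDM libraries, 666, 334, 476 and 439.7 CPM in non-lipid-laden MDM, 1890.5, 2079, 2807 and 1966 CPM in lipid-laden microglia and 1757, 1143, 2239.9 and 1502 CPM in non-lipid-laden microglia. Libraries are listed here and below in the order of the numbers in their titles, 221, 224, 431 and 718. Number 431 of the lipid-laden MDM was not analysed here. The highest non-lipid-laden MDM library lay below the lowest library of every other group, and the other 3 groups overlapped.

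**Figure D2:**
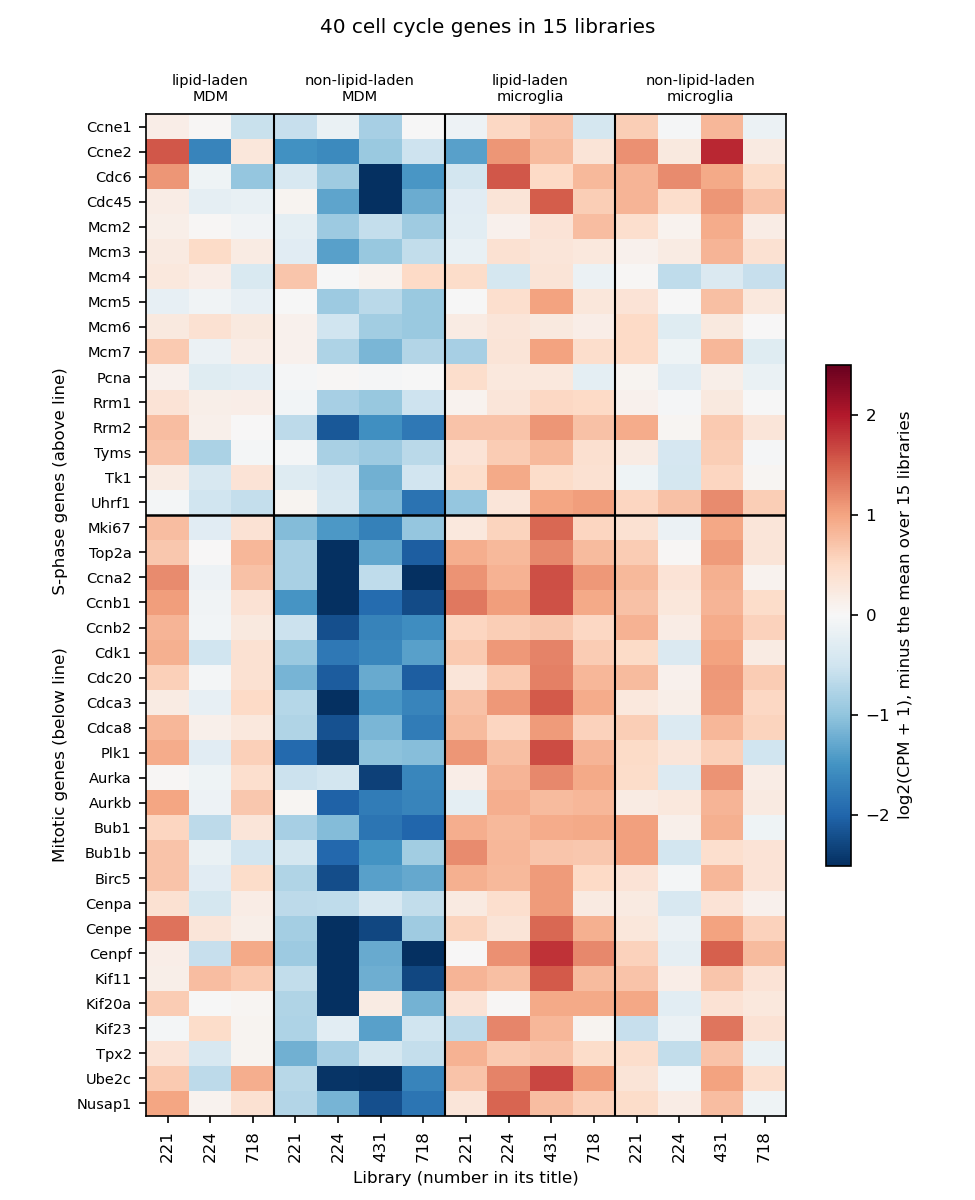
Level of 40 cell cycle genes (rows) in 15 libraries (columns, grouped and numbered as in their titles), as log2(CPM + 1) minus the gene's mean over all libraries; the colour scale is saturated at its ends. Most mitotic genes are low in the 4 non-lipid-laden MDM libraries, and most S-phase genes are lower there than in the other groups, Mcm4 and Pcna not.

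Markers of other cells differed between the same groups. The sum of 13 progenitor and glioma markers, among them Olig1, Pdgfra, Ptprz1 and Ncan, was 107 to 224 CPM in lipid-laden MDM, 22.3 to 40.1 CPM in non-lipid-laden MDM, 237 to 589.9 CPM in lipid-laden microglia and 185 to 536 CPM in non-lipid-laden microglia. Of the 13, 11 fell in non-lipid-laden MDM against microglia and 6 rose in lipid-laden against non-lipid-laden MDM; Sox2 was at 0 in all non-lipid-laden MDM libraries. Within both microglial groups the library with the highest mitotic sum had the lowest sum of these markers. This was number 431, with 237 CPM among lipid-laden and 185 CPM among non-lipid-laden microglia. Non-lipid-laden MDM library 221 likewise had the highest mitotic and the lowest marker sum of its group, 666 and 22.3 CPM. Lipid-laden MDM differed in this, as library 224 had the lowest of both sums, 1099 and 107 CPM. Only non-lipid-laden MDM kept the inverse order over all their libraries. Non-lipid-laden microglial library 221 had the highest marker sum of its group, 536 CPM, with a mitotic sum of 1757 CPM, above that of libraries 224 and 718. All 6 microglial markers fell in non-lipid-laden MDM against microglia and 5 rose in lipid-laden against non-lipid-laden MDM, and their sum was 2284 to 7146 CPM in lipid-laden microglia and 4701 to 7372 CPM in non-lipid-laden microglia. The lowest of these, lipid-laden microglial library 221, lay below all 3 lipid-laden MDM libraries.

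Sums of 8 dendritic cell markers, among them Flt3, Ccr7 and Cd209a, were 158 to 195 CPM in lipid-laden MDM, 896 to 2350.3 CPM in non-lipid-laden MDM, 6.23 to 18.7 CPM in lipid-laden microglia and 21.7 to 38.9 CPM in non-lipid-laden microglia. All 8 rose in non-lipid-laden MDM against microglia and 5 fell in lipid-laden against non-lipid-laden MDM. Sums of 11 T and NK cell markers were 45.9 to 124 CPM in lipid-laden MDM, 48.4 to 199.5 CPM in non-lipid-laden MDM, 0.618 to 11.7 CPM in lipid-laden microglia and 1.39 to 6.99 CPM in non-lipid-laden microglia, with the highest values in the MDM libraries numbered 221 of both kinds, and 6 rose between the origins without lipid load. B cell markers summed to at most 12.8 CPM and endothelial markers to at most 94.5 CPM in any library, none of them called, and the neutrophil marker Ly6g was at 0 in every library. With S100a8 and Csf3r, of which 1 fell in non-lipid-laden MDM against microglia, neutrophil markers summed to 143 to 274 CPM in lipid-laden MDM, 91.9 to 127 CPM in non-lipid-laden MDM, 113 to 295 CPM in lipid-laden microglia and 227 to 319.9 CPM in non-lipid-laden microglia. Of the 5 general macrophage genes, 3 fell in non-lipid-laden MDM against microglia and 4 rose in lipid-laden against non-lipid-laden MDM. The part that such cells have in the differences of the cell cycle genes was not tested.

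Non-lipid-laden MDM were compared with non-lipid-laden microglia to ask how far division genes differ with the origin of the cells. With edgeR's quasi-likelihood test and Benjamini-Hochberg adjustment over all 14843 genes, an adjusted p under 0.05 counted as a call. By that rule 22 of the 24 mitotic genes fell in MDM and none rose, where 12.5% of all genes tested fell and 10.7% rose. Of the S-phase genes, 10 fell (Ccne2, Cdc6, Cdc45, Mcm2, Mcm3, Mcm5, Mcm6, Rrm1, Rrm2 and Uhrf1) and 1 rose (Mcm4). The median log2 fold change was -1.87 over the mitotic genes and -0.91 over the S-phase genes, against -0.12 over all genes tested. Within pairs of equal number the mitotic median was -1.40, -2.21, -2.55 and -1.83 for numbers 221, 224, 431 and 718, and the S-phase median -0.39, -0.85, -1.70 and -0.84. The groups did not overlap for 20 mitotic and 8 S-phase genes, all lower in MDM, where this held for 14.8% of all genes tested. Within the 4 pairs of equal number, 24 mitotic and 12 S-phase genes were lower in MDM in every pair, where 24.1% of all genes were.

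The cyclins and the kinase that start mitosis were among the genes that fell. Ccnb1 had 123, 55.7 and 76.1 CPM in lipid-laden MDM, 20.6, 7.05, 14.8 and 11.7 CPM in non-lipid-laden MDM, 148, 123, 179 and 114 CPM in lipid-laden microglia and 98.9, 71.8, 107 and 81.5 CPM in non-lipid-laden microglia. All 4 non-lipid-laden MDM libraries lay below every other library; lipid-laden MDM overlapped both microglial groups, and lipid-laden microglia lay above non-lipid-laden microglia without overlap. Ccnb1 (chr13:100778650-100786570, mm10) encodes cyclin B1, the activating partner of CDK1, and its log2 fold change in MDM was -2.73 ± 0.31 (edgeR adjusted p = 1.48e-05), the lowest value of the 40 genes; values after ± are SE beside log2 changes and SD beside levels. Cdk1 had 98.2, 37.2 and 69.1 CPM in lipid-laden MDM, 27.4, 14.6, 16.3 and 19.9 CPM in non-lipid-laden MDM, 83.4, 113, 127 and 82.2 CPM in lipid-laden microglia and 73.8, 40.6, 108 and 61.3 CPM in non-lipid-laden microglia. Cdk1, the gene of the kinase itself, fell by 1.86 on the log2 scale (edgeR adjusted p = 0.000777), and here too every MDM library without lipid load was below every library of the other groups. Ccnb2 (cyclin B2) and Ccna2 (cyclin A2, active in S phase and G2) changed by -2.06 ± 0.31 and -2.21 ± 0.66, and Plk1 (polo-like kinase, which promotes mitotic entry) by -1.86 ± 0.38. Plk1 averaged 45.3 ± 17.9 CPM in lipid-laden MDM, 10.7 ± 5.03 CPM in non-lipid-laden MDM, 70.7 ± 21.2 CPM in lipid-laden microglia and 38.9 ± 11.7 CPM in non-lipid-laden microglia (SD, n = 3, 4, 4 and 4).

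Genes of mitotic exit, chromosome structure and the spindle fell with them. Cdc20 had 123, 78.9 and 106 CPM in lipid-laden MDM, 35.6, 18.4, 33.4 and 18.8 CPM in non-lipid-laden MDM, 100.2, 129, 196 and 144 CPM in lipid-laden microglia and 141, 87.8, 173 and 127 CPM in non-lipid-laden microglia. CDC20 directs the anaphase-promoting complex to its substrates, and its log2 fold change in MDM was -2.32 ± 0.28 (edgeR adjusted p = 2.86e-05), with no overlap between the groups. Ube2c, the ubiquitin-conjugating enzyme of the same complex, changed by -2.17 ± 0.43. Ube2c averaged 58.3 ± 28.2 CPM in lipid-laden MDM, 13.2 ± 9.00 CPM in non-lipid-laden MDM, 99.4 ± 28.1 CPM in lipid-laden microglia and 59.4 ± 19.4 CPM in non-lipid-laden microglia. Mki67 had 173, 83.5 and 131 CPM in lipid-laden MDM, 47.3, 37.1, 30.6 and 51.6 CPM in non-lipid-laden MDM, 123, 149, 274 and 148 CPM in lipid-laden microglia and 132, 91.6, 199 and 126 CPM in non-lipid-laden microglia. Mki67 encodes Ki-67, the coat protein of mitotic chromosomes used as a marker of cycling cells, and fell by 1.72 (edgeR adjusted p = 0.000705). Top2a had 149, 94.2 and 167 CPM in lipid-laden MDM, 53.1, 10.1, 37.1 and 21.6 CPM in non-lipid-laden MDM, 175, 165, 215 and 161 CPM in lipid-laden microglia and 146, 95.7, 195 and 117 CPM in non-lipid-laden microglia. The gene for topoisomerase II alpha, which untangles sister chromatids, fell by 2.19 (edgeR adjusted p = 0.00067), and both genes separated the groups without overlap.

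Kif11 averaged 63.8 ± 13.9 CPM in lipid-laden MDM, 14.5 ± 11.0 CPM in non-lipid-laden MDM, 89.5 ± 25.9 CPM in lipid-laden microglia and 61.9 ± 11.7 CPM in non-lipid-laden microglia (SD, n = 3, 4, 4 and 4). Of the spindle motors, Kif11 (the kinesin that pushes spindle poles apart) changed by -2.10 ± 0.44, whereas Kif20a and Kif23, kinesins of the central spindle, did not pass the test at -1.22 ± 0.48 and -1.14 ± 0.44. The kinetochore and checkpoint genes Cenpe, Cenpf, Bub1 and Bub1b changed by -2.03 ± 0.45, -2.58 ± 0.53, -2.03 ± 0.36 and -1.56 ± 0.38. The chromosomal passenger complex was represented by Aurkb (-1.55 ± 0.44), Birc5 (-1.75 ± 0.29) and Cdca8 (-1.87 ± 0.31), whose products, with INCENP, correct the attachment of chromosomes to the spindle. Birc5 averaged 87.6 ± 28.5 CPM in lipid-laden MDM, 26.9 ± 10.6 CPM in non-lipid-laden MDM, 122 ± 19.5 CPM in lipid-laden microglia and 90.5 ± 23.4 CPM in non-lipid-laden microglia. Aurka, the spindle pole kinase, and its activator Tpx2 changed by -1.54 ± 0.40 and -0.94 ± 0.27, and Nusap1, a microtubule-bundling protein, by -1.84 ± 0.37. Cdca3, which acts in mitotic entry, changed by -2.12 ± 0.39. The smallest change among the 22 called was that of Cenpa, the centromeric histone H3 variant, at -0.68 ± 0.23 with an edgeR adjusted p of 0.0436. When each library was left out in turn, 18 of the 22 mitotic genes stayed called throughout, and Aurkb, Ccna2, Cenpa and Tpx2 were lost at least once.

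The S-phase genes divided more unevenly. Rrm2 had 190.0, 121 and 112 CPM in lipid-laden MDM, 70.6, 24.9, 37.7 and 31.4 CPM in non-lipid-laden MDM, 184, 182, 239 and 184 CPM in lipid-laden microglia and 213, 114, 176 and 138 CPM in non-lipid-laden microglia. RRM2 is the regulated subunit of ribonucleotide reductase, which makes deoxynucleotides, and the gene fell by 1.96 in MDM (edgeR adjusted p = 0.000193), with no overlap. Its larger partner Rrm1 fell by 0.63. Ccne2 had 31.8, 2.60 and 12.8 CPM in lipid-laden MDM, 2.92, 2.72, 4.94 and 6.88 CPM in non-lipid-laden MDM, 3.41, 23.1, 18.5 and 13.1 CPM in lipid-laden microglia and 23.8, 12.3, 40.8 and 12.1 CPM in non-lipid-laden microglia. Cyclin E2 activates CDK2 at the G1/S transition; the gene fell by 2.34 with an edgeR adjusted p of 0.0241, and the highest of its lipid-laden MDM libraries had over 10 times the CPM of the lowest. Ccne1 had 37.8, 34.5 and 22.7 CPM in lipid-laden MDM, 22.4, 29.9, 18.5 and 33.5 CPM in non-lipid-laden MDM, 31.0, 49.0, 56.3 and 24.6 CPM in lipid-laden microglia and 52.2, 33.2, 60.6 and 30.3 CPM in non-lipid-laden microglia. For Ccne1, the gene of cyclin E1, MDM and microglia overlapped, and the difference of -0.76 ± 0.31 did not pass the test (edgeR adjusted p = 0.0947).

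The 6 subunits of the MCM helicase, which unwinds DNA at the fork and assembles from 1 copy of each, did not move as a block. Mcm2 had 76.8, 70.9 and 64.7 CPM in lipid-laden MDM, 58.7, 36.3, 45.3 and 36.7 CPM in non-lipid-laden MDM, 57.1, 74.2, 88.2 and 119 CPM in lipid-laden microglia and 92.5, 73.3, 133 and 78.9 CPM in non-lipid-laden microglia. Every non-lipid-laden MDM library was below every non-lipid-laden microglial library, and Mcm2 changed by -1.10 ± 0.24 (edgeR adjusted p = 0.00406). Mcm6 had 169.8, 186 and 169 CPM in lipid-laden MDM, 154, 101, 77.4 and 74.2 CPM in non-lipid-laden MDM, 164, 176, 168 and 161 CPM in lipid-laden microglia and 203, 116, 169 and 143 CPM in non-lipid-laden microglia. Mcm6 overlapped between MDM and microglia through MDM library 221 and microglial libraries 224 and 718, and its change of -0.63 ± 0.21 was just past the threshold (edgeR adjusted p = 0.0418). Mcm4 had 95.6, 88.6 and 60.8 CPM in lipid-laden MDM, 129, 79.0, 83.9 and 113 CPM in non-lipid-laden MDM, 109, 58.0, 98.8 and 71.7 CPM in lipid-laden microglia and 81.0, 50.3, 61.0 and 52.7 CPM in non-lipid-laden microglia. Mcm4 (chr16:15623897-15637400, mm10) rose by 0.72 in MDM (SE 0.24; edgeR adjusted p = 0.0385), with the highest microglial library above the lowest MDM library. Mcm3 had 197, 234 and 194 CPM in lipid-laden MDM, 139, 65.6, 87.2 and 109 CPM in non-lipid-laden MDM, 147, 219, 208 and 204 CPM in lipid-laden microglia and 181, 193, 306 and 221 CPM in non-lipid-laden microglia. Mcm3 (chr1:20802968-20820312, mm10) fell by 1.17 without overlap between the non-lipid-laden groups (edgeR adjusted p = 0.0013). Mcm5 fell by 0.95, and Mcm7 at -0.86 ± 0.37 did not pass the test.

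The loading factors Cdc6 and Cdc45, which place and activate the helicase, fell by 2.27 and 1.90, and Uhrf1, which carries DNA methylation to the new strand, by 1.49. Cdc6 averaged 14.2 ± 10.8 CPM in lipid-laden MDM, 4.62 ± 3.49 CPM in non-lipid-laden MDM, 20.6 ± 11.7 CPM in lipid-laden microglia and 22.4 ± 4.60 CPM in non-lipid-laden microglia (SD, n = 3, 4, 4 and 4), and the libraries of a group differed widely. Uhrf1 averaged 22.8 ± 5.12 CPM in lipid-laden MDM, 18.4 ± 10.3 CPM in non-lipid-laden MDM, 43.2 ± 22.2 CPM in lipid-laden microglia and 51.5 ± 11.2 CPM in non-lipid-laden microglia. Pcna had 212, 159 and 165 CPM in lipid-laden MDM, 192, 202, 193 and 196 CPM in non-lipid-laden MDM, 269, 238, 236 and 167 CPM in lipid-laden microglia and 206, 163, 219 and 176 CPM in non-lipid-laden microglia. PCNA, the sliding clamp of the replication fork that also serves DNA repair, differed by 0.03 ± 0.15 between the origins, and its 4 non-lipid-laden MDM values lay within the range of the microglial ones. Tyms and Tk1, which make and salvage thymidine nucleotides, gave -0.73 ± 0.31 and -0.63 ± 0.25 and did not pass the test. Tk1 averaged 68.8 ± 17.6 CPM in lipid-laden MDM, 43.5 ± 10.7 CPM in non-lipid-laden MDM, 97.5 ± 19.5 CPM in lipid-laden microglia and 67.4 ± 20.2 CPM in non-lipid-laden microglia. With each library left out in turn, 5 of the 11 called S-phase genes stayed called throughout (Cdc45, Mcm2, Mcm3, Mcm5 and Rrm2). Only 6 were called without microglial library 431 and 7 without MDM library 718, and Mcm4 was among the calls lost in both cases. Over all such fits Mcm4 was lost in 5 of 15 and Mcm6 in 12 of 15.

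Lipid-laden MDM were compared with non-lipid-laden MDM to ask whether division genes differ between the 2 sorted kinds of MDM. Of the mitotic genes, 18 of 24 rose in lipid-laden MDM and none fell, where 5.21% of all genes tested rose and 2.96% fell. Of the S-phase genes, 4 of 16 rose (Mcm3, Mcm6, Rrm1 and Rrm2) and none fell. The median log2 fold change was 1.79 over the mitotic genes and 0.73 over the S-phase genes, against 0.04 over all genes tested. Within pairs of equal number the mitotic median was 1.42, 1.99 and 2.03 for numbers 221, 224 and 718, and the S-phase median 0.45, 0.70 and 0.80. The groups did not overlap for 20 mitotic and 5 S-phase genes, all higher in lipid-laden MDM, where this held for 11.1% of all genes tested. Within the 3 pairs of equal number, 24 mitotic and 10 S-phase genes were higher in every pair, where 21.9% of all genes were. This comparison shares the non-lipid-laden MDM libraries with the one above, so the members' values in the 2 comparisons are not independent.

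Ccnb1 had the largest log2 fold change of the 40 genes, 2.65 ± 0.32 (edgeR adjusted p = 0.000174). Its mean was 84.9 ± 34.5 CPM in lipid-laden MDM and 13.6 ± 5.71 CPM in non-lipid-laden MDM (SD, n = 3 and 4). Cdc20 averaged 102 ± 22.1 CPM in lipid-laden MDM and 26.5 ± 9.23 CPM in non-lipid-laden MDM, a change of 1.95 ± 0.29 (edgeR adjusted p = 0.000808). For both genes all 3 lipid-laden libraries lay above all 4 others. Top2a changed by 2.17 ± 0.40, Mki67 by 1.63 ± 0.32 and Cdk1 by 1.80 ± 0.35, also without overlap. Among the remaining mitotic genes the called changes ran from 1.60 for Bub1 to 2.34 for Ccna2. The 6 mitotic genes that did not pass were Aurka (1.23 ± 0.43), Bub1b (1.24 ± 0.40), Cenpa (0.66 ± 0.24), Kif20a (1.08 ± 0.50), Kif23 (0.88 ± 0.47) and Tpx2 (0.79 ± 0.28), all with a positive value.

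On the S-phase side, Rrm2 averaged 141 ± 42.8 CPM in lipid-laden MDM and 41.1 ± 20.3 CPM in non-lipid-laden MDM and rose by 1.78 (edgeR adjusted p = 0.00231). Mcm3 averaged 208 ± 22.3 CPM in lipid-laden MDM and 100.2 ± 31.4 CPM in non-lipid-laden MDM and rose by 1.05 (edgeR adjusted p = 0.0113). Rrm1 and Mcm6 rose by 0.78 and 0.79, the second with an edgeR adjusted p of 0.0444. Pcna and Mcm4 had the only negative values, -0.13 ± 0.17 and -0.31 ± 0.26, neither past the test. Ccne2 gave 1.84 ± 0.73 with lipid-laden values of 31.8, 2.60 and 12.8 CPM and did not pass. With each library left out in turn, 13 of the 18 mitotic genes and 2 of the 4 S-phase genes (Mcm3 and Rrm2) stayed called throughout. Without MDM library 224, lipid-laden MDM library 221 or lipid-laden MDM library 718, 2 S-phase genes were called.

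**Figure D3:**
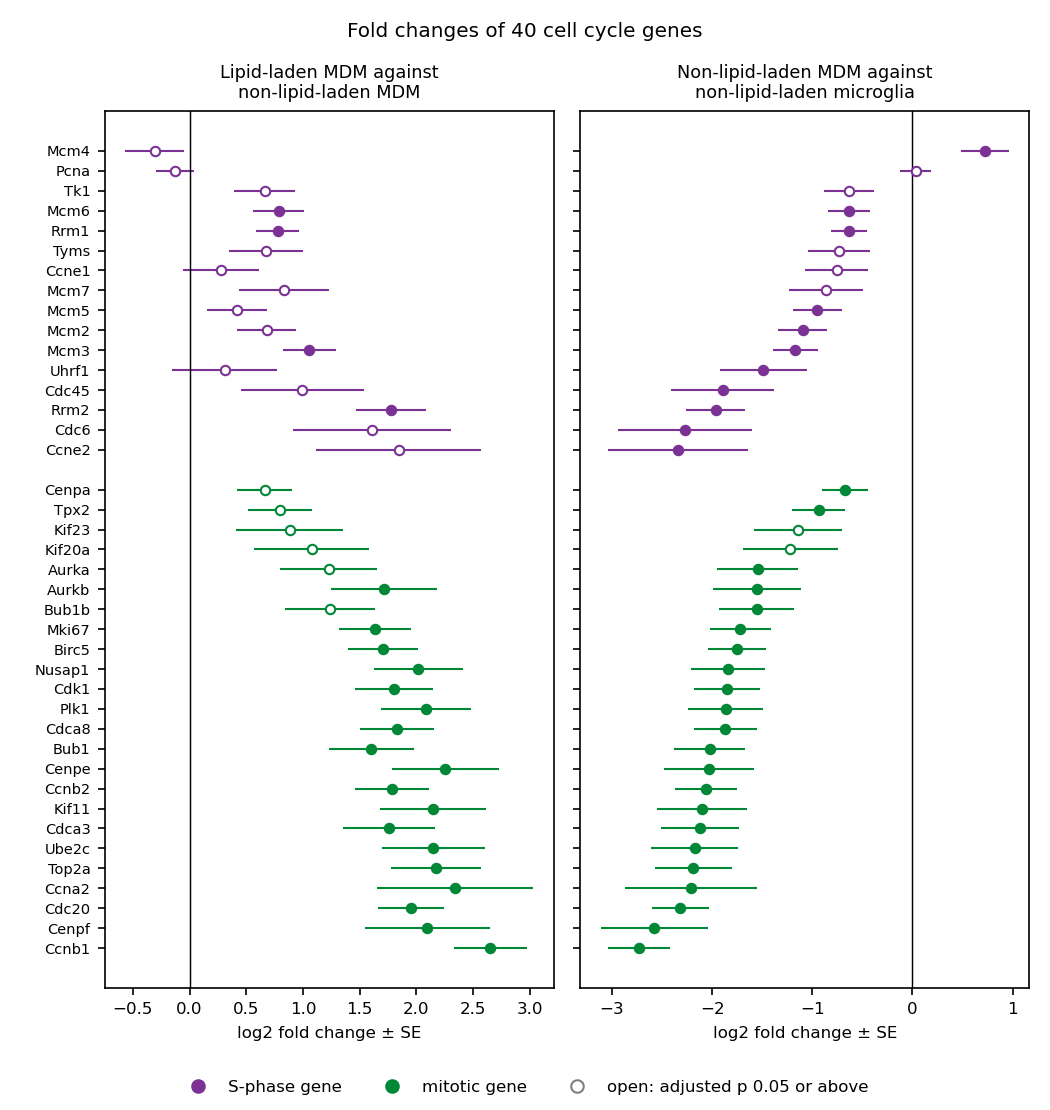
Log2 fold changes with SE (x axis) of 40 cell cycle genes (rows; S-phase purple, mitotic green) in lipid-laden against non-lipid-laden MDM (left; 3 and 4 libraries) and in non-lipid-laden MDM against non-lipid-laden microglia (right; 4 libraries each); filled points passed an adjusted p of 0.05 in edgeR. Mitotic genes lie to the right of 0 on the left and to the left of 0 on the right, and most S-phase genes lie closer to 0; the 2 comparisons share the non-lipid-laden MDM libraries.

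Between the origins among lipid-laden cells, none of the 40 genes was called in edgeR, where 2.78% of all genes tested were called. At an unadjusted p under 0.05, 3 mitotic and 1 S-phase gene passed, where 14.7% of all genes did. None of the 40 was among the 6.24% of genes that DESeq2 called or the 3.78% that limma-voom called. A fit in edgeR with the library number as a block called 3.83% of all genes and none of the 40. The median log2 fold change of lipid-laden MDM over lipid-laden microglia was -0.48 for mitotic and -0.35 for S-phase genes, against -0.03 over all genes tested, and all 24 mitotic values were negative. Within pairs of equal number the mitotic median was 0.045, -0.99 and -0.26 for numbers 221, 224 and 718, and the S-phase median 0.32, -0.53 and -0.30, so that number 221 had the opposite sign. Without lipid-laden MDM library 224 the mitotic median was -0.29, with 2 values positive. The S-phase median was -0.17 without lipid-laden MDM library 718 and -0.53 without lipid-laden MDM library 221. Without all libraries numbered 221 the medians were -0.75 and -0.59. Ccnb1 averaged 84.9 ± 34.5 CPM in lipid-laden MDM and 141 ± 29.2 CPM in lipid-laden microglia (SD, n = 3 and 4), a log2 fold change of -0.73 ± 0.31 with an edgeR adjusted p of 0.287. Cdca3 and Mcm5 lay lower in every lipid-laden MDM library than in any lipid-laden microglial library, with -0.92 ± 0.41 and -0.65 ± 0.27. Lack of overlap in that direction held for 3 mitotic and 2 S-phase genes and for 5.17% of all genes tested.

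Between lipid-laden and non-lipid-laden microglia, none of the 40 genes was called in edgeR, and 0 of all 14843 genes were. At an unadjusted p under 0.05, 2 mitotic and 1 S-phase gene passed, where 9.21% of all genes did. DESeq2 called 1.31% of all genes and limma-voom 0, none of them among the 40. With the library number as a block, edgeR called 0.802% of all genes and none of the 40. The median log2 fold change was 0.41 over mitotic genes, with 23 of 24 values positive, and 0.08 over S-phase genes, with 9 of 16 positive, against -0.02 over all genes tested. The mitotic median was 0.25 without microglial library 224 and 0.62 without microglial library 431, both non-lipid-laden. Ccnb1, Plk1 and Kif11 were higher in every lipid-laden than in any non-lipid-laden microglial library, as were 2.65% of all genes, with log2 changes of 0.65 ± 0.29, 0.86 ± 0.36 and 0.53 ± 0.42. Within the 4 pairs of equal number, 13 mitotic and 2 S-phase genes (Mcm4 and Tyms) were higher in every pair, where 10.2% of all genes were.

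Whether lipid load goes with different changes in the 2 origins was tested as the difference of the log2 changes, MDM minus microglia. It passed for the mitotic genes Ccnb1 (2.00 ± 0.43), Ccnb2 (1.86 ± 0.44) and Cdc20 (1.84 ± 0.40) and for the S-phase gene Mcm3 (1.27 ± 0.32), where 1.6% of all genes passed in this direction and 0.93% in the other. The edgeR adjusted p was 0.0203 for Ccnb1, 0.0335 for Ccnb2, 0.0213 for Cdc20 and 0.0489 for Mcm3. Marker genes passed too: 5 of 6 microglial, 2 of 13 progenitor and glioma and 2 of 5 general macrophage genes, all with positive values. Of the 6 MDM markers, 2 passed with negative values. Any relation of these markers to the cell cycle genes was not tested. The median difference was 1.35 over mitotic genes, all 24 of them positive, and 0.63 over S-phase genes, 14 of 16 positive, against 0.10 over all genes tested. Ccnb2 had 136, 71.0 and 88.7 CPM in lipid-laden MDM, 51.3, 15.5, 22.9 and 24.7 CPM in non-lipid-laden MDM, 109, 115, 120.4 and 107 CPM in lipid-laden microglia and 138, 85.5, 144 and 111 CPM in non-lipid-laden microglia. Ccnb2 (chr9:70407692-70421547, mm10) was lower in non-lipid-laden MDM than in the other groups without overlap, and its microglial groups overlapped. With each library left out in turn the mitotic count ran from 0, without lipid-laden MDM library 221, to 6, without MDM library 221, and was 1 without lipid-laden MDM library 718. Mcm3 was lost in 13 of 15 such fits and Ccnb2 in 11 of 15.

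The 2 classes were set side by side as a level per library. This level was the median over the class of log2(CPM + 1), after each gene was centred on the mean of its group means. The mitotic minus the S-phase level was 0.45, -0.06 and 0.43 for lipid-laden MDM, -0.72, -1.38, -0.48 and -0.95 for non-lipid-laden MDM, 0.72, 0.46, 0.56 and 0.38 for lipid-laden microglia and 0.01, -0.07, 0.07 and 0.19 for non-lipid-laden microglia. Every non-lipid-laden MDM library was below every other library, so mitotic genes were lower there relative to S-phase genes as well as in themselves. Lipid-laden microglia lay above non-lipid-laden microglia without overlap, and lipid-laden MDM spanned both. The S-phase level alone was 0.22, -0.10 and -0.08 for lipid-laden MDM, -0.06, -0.83, -0.94 and -0.70 for non-lipid-laden MDM, -0.06, 0.34, 0.62 and 0.40 for lipid-laden microglia and 0.44, -0.01, 0.79 and 0.11 for non-lipid-laden microglia, with MDM library 221 within the range of the other groups. No test was made of these class levels.

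**Figure D4:**
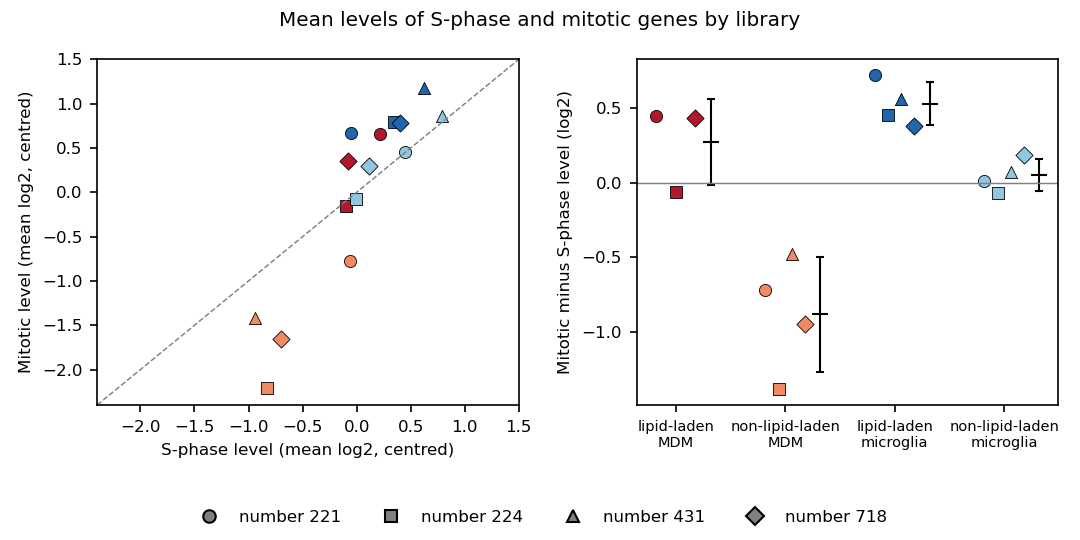
Left, median centred log2 level of 24 mitotic genes (y axis) against that of 16 S-phase genes (x axis) in 15 libraries, with equality dashed. Right, mitotic minus S-phase level by group with mean and SD (n = 3 for lipid-laden MDM, 4 otherwise). Levels are medians over each class, although the title and axis labels read mean. Colours follow the groups named on the right and shapes the library numbers; the 4 non-lipid-laden MDM libraries lie lowest in mitotic level and in the difference.

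Many members had their highest or lowest value of a group in the same library. How often other genes did so was not counted. Library 221 had the highest value of its group for 17 of 24 mitotic and 12 of 16 S-phase genes among lipid-laden MDM, and for 16 and 13 among non-lipid-laden MDM. Library 431 had the highest value for 18 mitotic and 7 S-phase genes among lipid-laden microglia, and for 20 and 12 among non-lipid-laden microglia. Library 224 had the lowest value for 20 mitotic genes in lipid-laden MDM, 16 in non-lipid-laden MDM and 18 in non-lipid-laden microglia, but for 7 in lipid-laden microglia, where library 221 was lowest for 10. Without all libraries numbered 221, 20 mitotic and 12 S-phase genes fell in non-lipid-laden MDM against microglia, with medians of -2.11 and -1.15, and 16 mitotic and 4 S-phase genes rose in lipid-laden against non-lipid-laden MDM. The share of all genes called in that refit is not given here, and the shares of the main fit do not apply to it.

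Of 27 further genes that control G1 and the commitment to divide, 25 were tested, and the 5 that rose in non-lipid-laden MDM against microglia were 2 D cyclins and 3 inhibitors of cyclin-dependent kinases. Ccnd2 had 98.8, 112 and 71.3 CPM in lipid-laden MDM, 519, 586, 620.3 and 501 CPM in non-lipid-laden MDM, 43.9, 51.2, 36.8 and 53.0 CPM in lipid-laden microglia and 43.8, 37.8, 21.2 and 52.0 CPM in non-lipid-laden microglia. Cyclin D2, a partner of CDK4 and CDK6, was above every other group in all 4 non-lipid-laden MDM libraries, 3.85 higher than in microglia on the log2 scale (edgeR adjusted p = 9.84e-08) and -2.57 in lipid-laden against non-lipid-laden MDM (edgeR adjusted p = 5.73e-05). Cdkn1a had 481, 682 and 487 CPM in lipid-laden MDM, 917, 1076, 1213 and 988 CPM in non-lipid-laden MDM, 555, 352, 459.5 and 452 CPM in lipid-laden microglia and 317, 336, 334 and 422 CPM in non-lipid-laden microglia. Cdkn1a encodes p21, an inhibitor of cyclin-dependent kinases, and followed the same order, with 1.57 ± 0.16 between the origins without lipid load and -0.93 ± 0.18 between lipid-laden and non-lipid-laden MDM. Ccnd3 (cyclin D3), Cdkn1b (p27) and Cdkn2d (INK4D, an inhibitor of CDK4 and CDK6) also rose in non-lipid-laden MDM against microglia, by 1.21, 0.83 and 0.81, and fell in lipid-laden against non-lipid-laden MDM, by 1.68, 0.91 and 0.78.

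In all, 5 of these 25 genes rose and 6 fell in non-lipid-laden MDM against microglia, where 10.7% of all genes tested rose and 12.5% fell, and their median was -0.49 against -0.12 over all genes. In lipid-laden against non-lipid-laden MDM 4 rose and 6 fell, where 5.21% of all genes rose and 2.96% fell, and their median was 0.26 against 0.04. With each library left out in turn, 8 of the 11 and 4 of the 10 (Ccnd2, Ccnd3, Cdkn1a and Myc) stayed called throughout. The genes that fell between the origins were Cdk6, E2f3, E2f7, Mybl2, Cdkn2b and Cdkn2c. Mybl2, which encodes B-MYB, averaged 7.46 ± 1.46 CPM in lipid-laden MDM, 0.867 ± 1.32 CPM in non-lipid-laden MDM, 9.47 ± 2.54 CPM in lipid-laden microglia and 6.30 ± 1.21 CPM in non-lipid-laden microglia. At such low counts its fold changes were imprecise: it changed by -2.83 ± 0.84 between the origins and 3.07 ± 0.88 with lipid load in MDM. Foxm1 (-1.32 ± 0.62 and 1.56 ± 0.66), E2f1 (-0.49 ± 0.50 and 0.86 ± 0.54) and Ccnd1 (-0.51 ± 0.20 and -0.10 ± 0.22) did not pass in either comparison. The difference of the lipid-load change between the origins passed for Ccnd2 (-2.82 ± 0.34), Ccnd3 (-1.67 ± 0.32), Cdkn1a (-1.30 ± 0.24) and Cdkn2d (-1.18 ± 0.28), the last lost in 10 of 15 fits with a library left out. Between the origins in lipid-laden cells, Ccnd2 rose by 1.02 and Myc, a transcription factor of growth, fell by 1.13 in MDM; Ccnd2 was lost in 4 of 15 fits with a library left out, and Myc in 2 of 15. No gene of this list was called between lipid-laden and non-lipid-laden microglia.

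**Figure D5:**
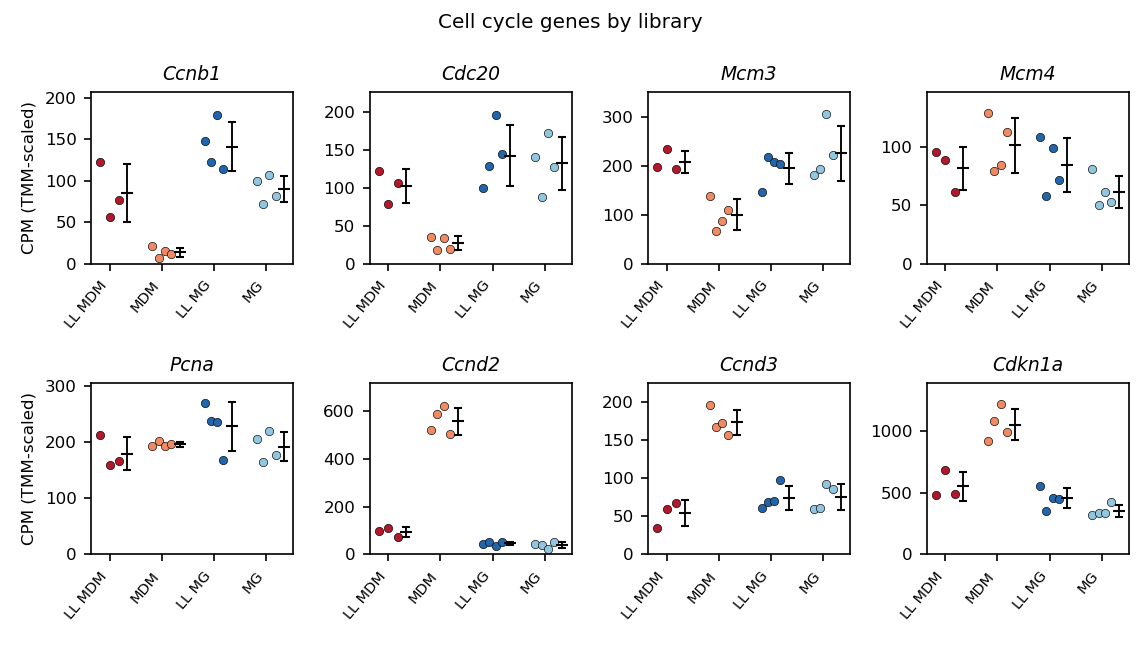
CPM on TMM-scaled library sizes (y axes) of 8 cell cycle genes in each library of lipid-laden MDM (LL MDM), non-lipid-laden MDM (MDM), lipid-laden microglia (LL MG) and non-lipid-laden microglia (MG), with mean and SD (n = 3 for lipid-laden MDM, 4 otherwise). Ccnb1, Cdc20 and Mcm3 are lowest, and Ccnd2, Ccnd3 and Cdkn1a highest, in non-lipid-laden MDM; Mcm4 and Pcna overlap between groups.

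Genes of the same processes outside the 40 were counted in the same way. Of 40 other mitosis genes, 28 fell in non-lipid-laden MDM against microglia and none rose, where 12.5% of all genes tested fell and 10.7% rose, with a median of -1.86 against -0.12 over all genes. In the same list 19 rose in lipid-laden against non-lipid-laden MDM and none fell, where 5.21% of all genes rose and 2.96% fell, with a median of 1.63 against 0.04. Aspm, a spindle pole protein, averaged 21.8 ± 3.81 CPM in lipid-laden MDM, 1.57 ± 0.836 CPM in non-lipid-laden MDM, 37.6 ± 8.76 CPM in lipid-laden microglia and 28.5 ± 6.40 CPM in non-lipid-laden microglia. It changed by -4.17 ± 0.39 between the origins and 3.78 ± 0.40 with lipid load in MDM, and its difference of 3.38 ± 0.51 passed, as did that of Kif2c, a microtubule-depolymerizing kinesin (2.92 ± 0.69), where 1.6% of all genes tested passed in that direction. With each library left out in turn, Kif2c was lost in 10 of 15 fits and Aspm in 0 of 15. Of 29 other replication genes, 7 fell and none rose between the origins, where 12.5% of all genes fell, with a median of -0.80. In lipid-laden against non-lipid-laden MDM 2 of the 29 rose (Gins1 and Gins2), a share close to the 5.21% of all genes that did, with a median of 0.63. With each library left out in turn, 23 of the 28 and 9 of the 19 mitosis genes stayed called throughout, and 2 of the 7 and 0 of the 2 replication genes. Clspn, which links the fork to its checkpoint, changed by -3.03 ± 0.64 between the origins, and Gins1, a subunit of the helicase cofactor GINS, by 1.18 ± 0.34 with lipid load in MDM. Neither list had a gene called between the origins in lipid-laden cells or between the microglial groups.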

How the data were processed

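Bulk RNA-seq was measured in 15 libraries of sorted macrophages from mouse brain tumours; per the labels' protocols, 2.5-5 ng of RNA per sample was primed with oligo-dT and amplified by template switching. The authors deposited raw read counts per gene, 1 column per library, with gene IDs, symbols and coordinates per the file headers. Coordinates refer to mm10, as named in the submitters' processing notes. How reads were aligned and counted, and with which strand setting, is not given in the sources used here. Reads shared by near-identical copies, overlapping genes or antisense partners cannot be told apart.

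Groups were taken from sample titles. Total counts were 7798952 to 11419338 per library; 1 line without a gene name held 0 counts. Counts were tested in R 4.3.3 with edgeR 4.0.16 (TMM scaling, quasi-likelihood, all 4 groups in 1 fit), after filterByExpr (minimum count 10, minimum total 15) kept 14843 of 55486 genes, with Benjamini-Hochberg adjustment over all of them. CPM were computed here on TMM-scaled totals, and class levels used log2(CPM + 1). The SE of a log2 change was derived as its absolute value divided by the square root of the quasi-likelihood F. DESeq2 1.42.0, limma 3.58.1 (voom), DESeq2 size factors, no filter, a replicate block, 2-group fits, other class memberships and leaving out libraries were alternatives. The edgeR step was tested on simulated data.

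The 40 genes, their 2 classes and the other lists were chosen with earlier results of these data known. Values in every library were given for 11 fixed members and any member called against its class median; Mcm3 and Ccnb2 were added after their values were seen. From other lists, at most 4 genes with the smallest p per list and comparison were named, plus Cdkn1a, Cdkn1b, Cdkn2a, Ccnd1, Ccnd2, Foxm1, Mybl2 and E2f1; further called genes were named after their values were seen. A few genes of the other lists are not reported here and were left out of their counts and sums.

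Titles give each library a number, and the labels do not say what it marks. Same-numbered libraries deviated together in the microglial groups (r = 0.124 to 0.256 over 4 pairs) and in the lipid-laden groups (r = 0.107 to 0.168 over 3 pairs). Each was over 0.1, and they were taken as paired there on the data alone. The main fits held no term for the number, which entered only the replicate block and the values given within pairs.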

Additional observations from a re-analysis of the deposited data

Results flagged for a closer look

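Of 120 sets of 4 libraries checked (each of the 40 genes in the groups with 4), 7 held a library far from the others by Dixon's criterion, and chance gives about 1 in 20. Aurkb stood out in 3 groups, with 35.6 CPM in non-lipid-laden MDM library 221 and 63.1 CPM in non-lipid-laden microglial library 431 as high values and 28.7 CPM in lipid-laden microglial library 221 as a low value. Lipid-laden microglial library 431 was high for Kif11 (128 CPM) and Rrm2 (239 CPM), and lipid-laden microglial library 224 was high for Tk1 (127 CPM). Cenpa was high in non-lipid-laden MDM library 431, at 55.4 CPM.

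The log2 change with lipid load, MDM minus microglia, passed its own test in edgeR for 4 of the 40 genes and for 4 genes of G1 control. It was 2.00 for Ccnb1, 1.86 for Ccnb2, 1.84 for Cdc20 and 1.27 for Mcm3, all more positive in MDM than in microglia. It was -2.82 for Ccnd2, -1.67 for Ccnd3, -1.30 for Cdkn1a and -1.18 for Cdkn2d. Over the fits that left out 1 library, the edgeR adjusted p ran from 0.0101 to 0.0582 for Ccnb1, lost without lipid-laden MDM library 221, and from 0.0162 to 0.0596 for Cdc20, lost without lipid-laden MDM library 221 or 718. It ran from 0.00461 to 0.085 for Ccnb2 and from 0.0178 to 0.115 for Mcm3. For Ccnd2 it stayed between 0.000962 and 0.00994.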

How the results depend on the processing

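Of 235 single-gene results, 78 were called, and none of these changed direction under any alternative; among the others, 36 changed sign at least once (113 of 6251 values), none of them called under that alternative. With 1 library left out, 18 to 23 mitotic genes were called in non-lipid-laden MDM against microglia and 13 to 19 in lipid-laden against non-lipid-laden MDM, and both classes stayed at 0 in the other 2 comparisons. S-phase counts with 1 library left out ran from 6 to 11 in non-lipid-laden MDM against microglia (6 without microglial library 431, 7 without MDM library 718) and from 2 to 5 in lipid-laden against non-lipid-laden MDM (2 without MDM library 224, lipid-laden MDM library 221 or lipid-laden MDM library 718), where a fit of only the 2 groups also gave 2. The difference of the lipid-load change was called for 0 to 2 S-phase and 0 to 6 mitotic genes with 1 library left out. It was called for 0 S-phase genes with DESeq2 size factors and for 2 without libraries numbered 221. DESeq2 and limma-voom each called it for 2 S-phase and 5 mitotic genes, all positive. In that direction DESeq2 called 4.27% of all genes and limma-voom 1.83%, against 1.6% in the main fit. For the remaining alternatives the share of all genes called is not given here, except for the replicate block. With the library number as a replicate block the difference was called for 2 S-phase genes (Mcm3 and Rrm2) and 6 mitotic genes (Ccnb1, Ccnb2, Cdc20, Top2a, Cdca8 and Birc5). All were positive, where the block called 2.82% of all genes in that direction. The block moved no other count of members by over 1.5 times. Same-numbered libraries of the pairs not taken as paired had r of 0.0152 to 0.15 for non-lipid-laden MDM with microglia and 0.0272 to 0.123 for lipid-laden with non-lipid-laden MDM.

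Chosen after seeing the data, the block was also fitted without the libraries of 1 number. In non-lipid-laden MDM against microglia it then called 7 S-phase genes without number 224, 7 without 431 and 3 without 718. In lipid-laden against non-lipid-laden MDM it called 1 S-phase gene without 224 and 1 without 718, and 11 mitotic genes without 718. For the difference it called 2 S-phase and 9 mitotic genes without 221, 0 and 7 without 224, and 0 and 0 without 718. Fewer libraries enter each of these fits, and the cause of the moves was not tested. The shares of all genes called in these fits are not given here. Over all alternatives the mitotic median ran from -2.22 to -1.70 and from 1.53 to 2.12 in the first 2 comparisons, and the S-phase median from -1.20 to -0.63 and from 0.60 to 0.94. For the difference the mitotic median ran from 1.13 to 1.73 and the S-phase median from 0.45 to 0.95. In lipid-laden MDM against lipid-laden microglia they ran from -0.75 to -0.19 and from -0.59 to -0.17, and between the microglial groups from 0.25 to 0.62 and from -0.06 to 0.23. The design holds 3 or 4 libraries a group from 7798952 to 11419338 counts each, and genes at a few CPM, such as Mybl2, are the least precise.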
